A study of Mus musculus with 14 samples.

Results

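Heme is assembled from glycine and succinyl-CoA by a chain of enzymes that begins and ends in the mitochondrion, and in the liver much of it is built into cytochrome P450 enzymes. The first enzyme of the chain, ALAS1, is rate-limiting in hepatocytes and is repressed by heme itself. Old heme is opened by heme oxygenase to biliverdin, iron and carbon monoxide, and biliverdin is then reduced to bilirubin. The genes described here are 9 of the 55487 genes in the table of counts. They were chosen by name for these steps, with earlier results of these data known. The 9 are *Alas1*, *Alad*, *Uros*, *Urod*, *Cpox*, *Ppox* and *Fech*, which encode enzymes of synthesis, and *Hmox1* and *Blvrb*, which encode enzymes of breakdown. All 9 were among the 12653 genes with enough reads to be tested.

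Liver RNA came from 14 male mice aged 8 to 12 weeks, of the TALLYHO strain, which develops diabetes from many gene variants and resembles type 2 diabetes. A group of 7 mice received indole, a bacterial metabolite of tryptophan, at 20 mg/kg by oral gavage, and the other 7 received the vehicle, water. Both groups were dosed 2 times a day for 7 days, underwent metabolic tests on days 8 and 10 with 2 further doses in between, and gave the right liver lobe on day 11. Strain, sex, handling and tests were shared by both groups. The samples are whole tissue, so fewer cells of a type and less RNA per cell cannot be told apart in any value below.

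For no heme gene did the difference between indole-treated and vehicle-treated mice pass the test against the spread between mice. The synthesis genes from *Alad* to *Ppox* had log2 fold changes of 0.02 to 0.12, *Fech* had one of −0.04, and *Alas1* was at 149.6±49.4 against 179±64.3 CPM (read counts per 1000000 reads of a library, mean±SD, *n*=7). *Blvrb*, which encodes biliverdin reductase B, came nearest to a difference at 71.3±4.99 against 64.4±8.28 CPM. The erythroid isoform of the first enzyme, *Alas2*, which is not among the 9, had a higher mean in indole-treated mice, as did globin genes. Their adjusted *p* from edgeR was 0.998 each. Mice of a group also varied among themselves. *Alas1* had a wide spread, *Hmox1* had one that came mostly from a single mouse, *Fech* had a narrow one in the vehicle group, and *Hmox1* followed the level of macrophage genes.

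Reads counted on genes numbered 15390922 to 21060376 with vehicle and 15197498 to 18464326 with indole, so that *Ppox*, the least abundant heme gene, had 82 to 196 reads per mouse and *Alad*, the most abundant, 4058 to 5540. The CPM values were scaled by TMM, which adjusts for differences in composition between libraries. Over all 12653 genes, edgeR's quasi-likelihood test gave an unadjusted *p* below 0.05 for 482 genes (3.81%). An adjusted *p* below 0.05 was given for 0 genes (0%), and DESeq2 on the same genes gave 532 and 1. The labels name no batch. Some libraries nevertheless stood apart. Mouse G8, in the indole group, had summed Kupffer cell and macrophage markers of 886 CPM, against 186 to 455 CPM in the vehicle group. Libraries G1 to G4, of which 2 are vehicle and 2 indole, had lower hepatocyte marker scores (−0.779 to −0.618) than the other 10 mice (0.0113 to 0.441). The nuclear RNA *Neat1* was at 11.4 to 17.4 CPM in them and at 2.16 to 10.7 CPM in the other 10. Another nuclear RNA, *Malat1*, overlapped, at 39.8 to 75.0 CPM in G1 to G4 and 9.18 to 50.5 CPM in the others.

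The liver identity of the samples was checked with marker genes. All 10 hepatocyte markers were tested and summed to 86011 to 108008 CPM with vehicle and 78071 to 114453 CPM with indole. Red cell genes were also present. Of 12 erythroid markers, *Epb42* had 0 reads in every mouse.

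Upstream sequence is shown for *Alad*, *Urod* and *Ppox*, because *Alad* and *Urod* had similar profiles over the mice while *Ppox* ran the other way in 4 libraries described further on. RefSeq windows from 250 bases before to 50 bases after a start site were found for 7 of the 9 genes, with 11 windows in all, on GRCm38.p6. Each line below gives the 100 bases just before a start site in the sense of the gene, which lies on the minus strand in all 3 cases. None of these stretches overlaps an annotated exon. Capitals mark a GC box (GGGCGG) or an E-box (CACGTG) on either strand.
*Alad*, chr4:62520064-62520163: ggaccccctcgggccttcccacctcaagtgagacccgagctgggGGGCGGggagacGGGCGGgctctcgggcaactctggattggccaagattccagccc
*Urod*, chr4:116994414-116994513: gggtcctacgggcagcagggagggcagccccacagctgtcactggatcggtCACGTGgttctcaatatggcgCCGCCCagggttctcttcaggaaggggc
*Ppox*, chr1:171281187-171281286: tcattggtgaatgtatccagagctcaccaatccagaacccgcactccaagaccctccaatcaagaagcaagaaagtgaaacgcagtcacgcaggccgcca

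The *Alad* stretch held 2 GC boxes, the *Urod* stretch 1 GC box and 1 E-box, and the *Ppox* stretch neither. In the full windows, *Alad* had 2 GC boxes at 1 start site and 6 at the other, *Urod* had 3 and *Ppox* had 1. A GC box was present in 35.7% of all 32851 windows. An E-box was less common, in 7.15% of all windows, and was found for *Alad*, *Urod* and *Uros*. The letters AGATAA, which GATA factors of red cells can bind, stood in 11.2% of all windows and in that of *Cpox* alone among the heme genes. TGANNNNGC, the core that NRF2 and BACH1 can bind, stood in 41.3% of windows and in windows of *Blvrb*, *Uros* and *Cpox*. The 2 starts of *Alad* lie close together, so their windows overlap. A match of letters is a description of the sequence and was not tested for binding.

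Levels were compared between genes per kilobase of transcript, because longer transcripts collect more reads. In the vehicle group *Alad*, whose product joins 2 molecules of aminolaevulinic acid into porphobilinogen, stood at 210.1±28.8 CPM per kb and was above every other heme gene in all 14 mice. *Blvrb* (62.6±8.06 CPM per kb), *Urod* (57.1±5.37) and *Alas1* (52.7±18.9) followed, and neighbours in this order overlapped. *Cpox* was at 38.5±3.54 CPM per kb, with a range that overlapped that of *Alas1*, and *Fech* was at 24.8±0.756 CPM per kb, below *Cpox* in all 14 mice. *Hmox1* (10.2±1.82 CPM per kb) and *Uros* (7.22±0.858) overlapped each other, and *Ppox* came last at 3.69±0.545, below *Uros* in all 14 mice. With the gene lengths of the deposited table in place of the transcript lengths, *Blvrb* moved behind *Urod* and *Alas1* and the other genes kept their order.

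**Figure D1:**
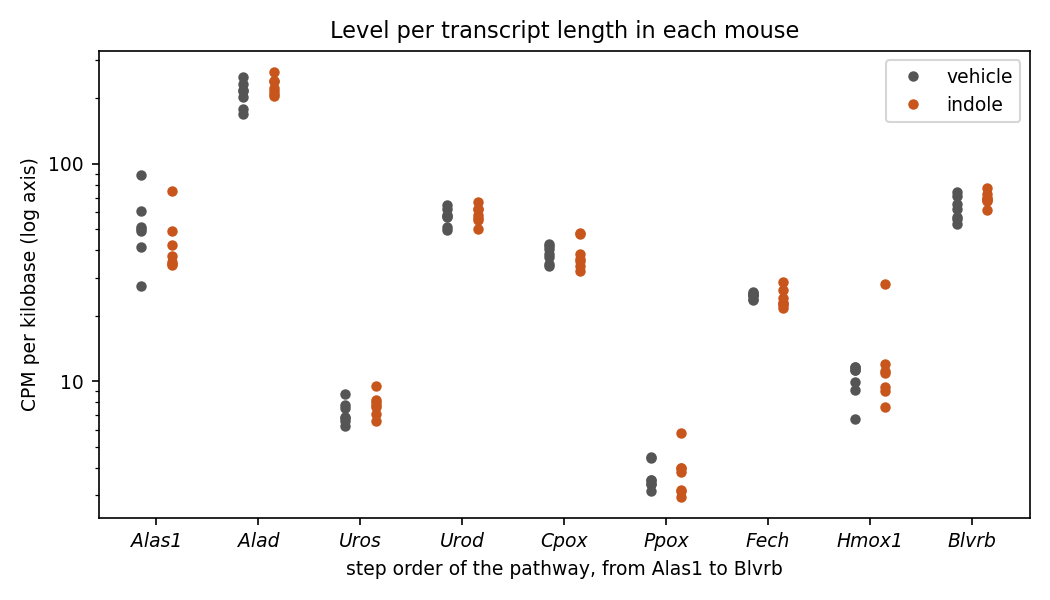
Level of each heme gene per kilobase of transcript (CPM per kb, log axis) in every mouse of both groups, in the order of the pathway. *Alad* lies highest (210.1 CPM per kb in the vehicle group) and *Ppox* lowest (3.69 CPM per kb), and the points of the groups overlap for every gene.

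*Alas1* (ENSMUSG00000032786, chromosome 9 from 106233455 to 106248654 on GRCm38) encodes the housekeeping 5-aminolaevulinate synthase that sets the pace of hepatic heme synthesis. It was at 93.7 to 301 CPM in vehicle-treated mice with a median of 170.0 CPM, and at 116 to 254 CPM in indole-treated mice with a median of 129 CPM. The ranges overlapped widely, although 6 of the 7 indole-treated mice lay below the vehicle median. The log2 fold change was −0.26 (SE 0.243, 95% interval −0.78 to 0.26, adjusted *p*=0.998 from edgeR), and the exact permutation test gave *p*=0.36. The mean difference of −16.5% therefore had an interval from −41.9% to 20.1%. Single mice moved it strongly, to −0.44 without the highest indole-treated mouse, G12, and to −0.08 without the highest vehicle-treated mouse, G10.

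The next enzymes of the chain lay slightly higher in indole-treated mice. *Alad* (ENSMUSG00000028393, chromosome 4 from 62509169 to 62519918) was at 211 to 312 CPM (median 270.5) with vehicle and at 257 to 330.1 CPM (median 277) with indole. The groups overlapped, and the log2 fold change of 0.12 (SE 0.0885, 95% interval −0.06 to 0.31) had an adjusted *p* of 0.998 from edgeR. *Uros* (ENSMUSG00000030979, chromosome 7 from 133686243 to 133710072), which closes the ring of 4 pyrroles into uroporphyrinogen III, was at 10.98 to 15.4 CPM (median 12.1) with vehicle and at 11.6 to 16.7 CPM (median 13.8) with indole. Of the indole-treated mice, 6 of 7 lay above the vehicle median, and the log2 fold change was 0.12 (SE 0.0974, 95% interval −0.09 to 0.32). *Uros* overlaps *Bccip* on the opposite strand, which had 15241 reads over the 14 mice against 3267 on *Uros*. The paper describes its libraries as strand-specific, but the strand setting used for counting is not given in the sources used here. Reads of these overlapping genes may have been shared if the counting ignored the strand.

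*Urod* (ENSMUSG00000028684, chromosome 4 from 116989965 to 116994413) removes carboxyl groups from uroporphyrinogen. It was at 74.1 to 96.4 CPM (median 85.4) with vehicle and at 74.9 to 99.2 CPM (median 86.4) with indole. These ranges almost coincided, and the log2 fold change was 0.04 (SE 0.0756, 95% interval −0.12 to 0.19). *Cpox* (ENSMUSG00000022742, chromosome 16 from 58670292 to 58717636), the coproporphyrinogen oxidase of the mitochondrial intermembrane space, was at 104 to 133 CPM (median 119) with vehicle and at 99.6 to 149 CPM (median 113) with indole. Its log2 fold change of 0.02 (SE 0.0939, 95% interval −0.18 to 0.21) turned slightly negative without G1, G4, G12 or G14, with a lowest value of −0.04. No direction can therefore be given for *Cpox*.

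*Ppox* (ENSMUSG00000062729, chromosome 1 from 171275990 to 171281186), which oxidises protoporphyrinogen to protoporphyrin, was at 5.69 to 8.18 CPM (median 6.40) with vehicle and at 5.37 to 10.5 CPM (median 6.97) with indole. The indole range enclosed the vehicle range. The log2 fold change was 0.06 (SE 0.147, 95% interval −0.25 to 0.36) and became −0.07 without mouse G3, which held the highest value. *Ppox* overlaps *B4galt3* on the opposite strand (1189 reads over the 14 mice against 1710 on *Ppox*), so the remark on shared reads applies here too.

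*Fech* (ENSMUSG00000024588, chromosome 18 from 64452914 to 64490251) encodes ferrochelatase, which inserts iron into protoporphyrin as the last step of synthesis. In vehicle-treated mice it kept to a band of 156 to 169 CPM with a median of 164 CPM, and in indole-treated mice it ran from 143 to 188 CPM with a median of 151 CPM. Of the indole-treated mice, 4 lay below the vehicle band, 2 above it and 1 within it. The means, 163±4.97 CPM and 159±16.2 CPM (*n*=7 each), were close, with a log2 fold change of −0.04 (SE 0.0687, 95% interval −0.18 to 0.10, adjusted *p*=0.998 from edgeR). The coefficient of variation was 3.04% with vehicle and 10.2% with indole. This difference in spread was noticed in the values and was not tested.

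The breakdown genes differed from each other in how they varied. *Hmox1* (ENSMUSG00000005413, chromosome 8 from 75093621 to 75100589) encodes the inducible heme oxygenase, which is strong in Kupffer cells that clear old red cells. It was at 10.5 to 18.2 CPM (median 17.7) with vehicle and at 11.95 to 44.1 CPM (median 17.2) with indole. Mouse G8 alone stood high, and the second highest indole-treated mouse was at 18.8 CPM. The log2 fold change of 0.30 (SE 0.261, 95% interval −0.26 to 0.86, adjusted *p*=0.998 from edgeR) became −0.03 without G8, so the direction rested on that mouse.

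*Blvrb* (ENSMUSG00000040466, chromosome 7 from 27447978 to 27466144) encodes biliverdin reductase B, which also reduces flavins and is abundant in red cells and liver. It was at 54.6 to 76.7 CPM (median 63.7) with vehicle and at 63.2 to 79.3 CPM (median 70.7) with indole. The groups overlapped, with 6 of 7 indole-treated mice above the vehicle median. The log2 fold change was 0.15 (SE 0.0796, 95% interval −0.02 to 0.31, adjusted *p*=0.998 from edgeR), or 10.7% higher, and the exact permutation test gave *p*=0.0781. The unadjusted *p* from edgeR was 0.0794 and went below 0.05 without G6 (0.0391), G7 (0.0493) or G11 (0.0222). *Blvrb* is also a red cell gene, and the summed erythroid markers were at 231 to 417 CPM with vehicle and at 307 to 1149 CPM with indole. Over the 14 mice, *Blvrb* and the erythroid score had *r*=0.47 (permutation *p*=0.0891, adjusted *p*=0.269) and rho=0.43 (permutation *p*=0.130), with 0.50 without G5 and G14, 0.36 within the vehicle group and 0.23 within the indole group.

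Indole-treated mice had higher means for 7 of the 9 heme genes and lower means for 2. The median log2 fold change of the 9 was 0.06, beside 0.00 for all genes tested. An unadjusted *p* below 0.05 was reached by 0 of the 9, where the share over all tested genes was 3.81%, made of 1.53% higher and 2.28% lower. The same count of 0 was found with DESeq2, with limma voom, under each other scaling and filter, and without the libraries G1 to G4. Exact permutation tests of the single genes gave *p* values from 0.0781 for *Blvrb* to 0.939 for *Cpox*, where 0.000583 is the smallest that 7 against 7 mice allow.

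**Figure D2:**
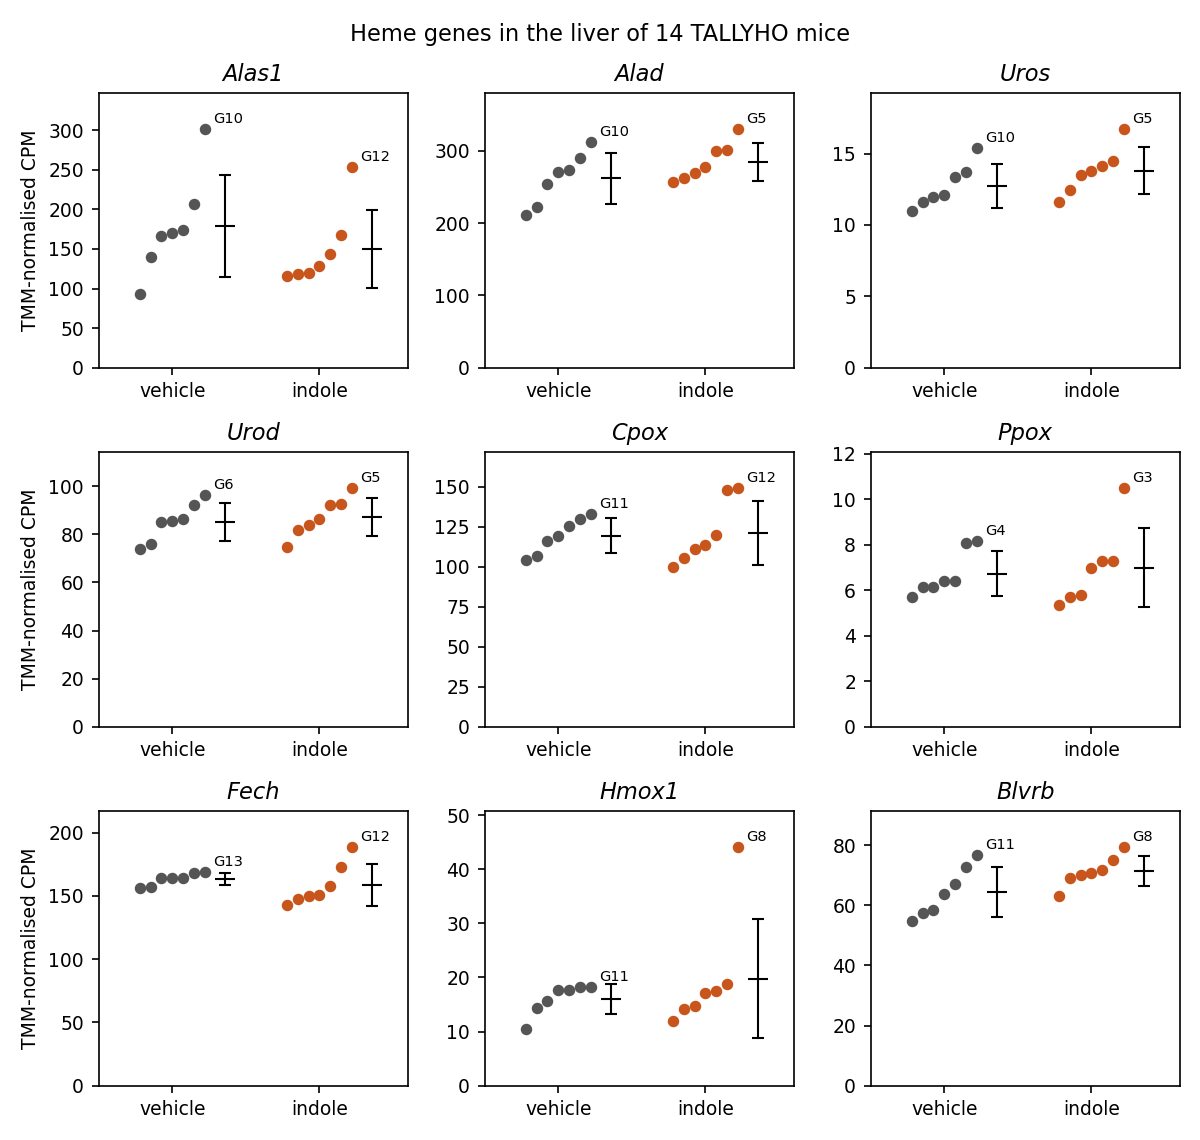
CPM of each heme gene in every mouse, 1 panel per gene, with vehicle-treated and indole-treated mice side by side, sorted from low to high within a group, and the mean and SD of each group. The groups overlap in every panel, *Fech* keeps to 156 to 169 CPM in the vehicle group, and mouse G8 stands at 44.1 CPM for *Hmox1*.

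**Figure D3:**
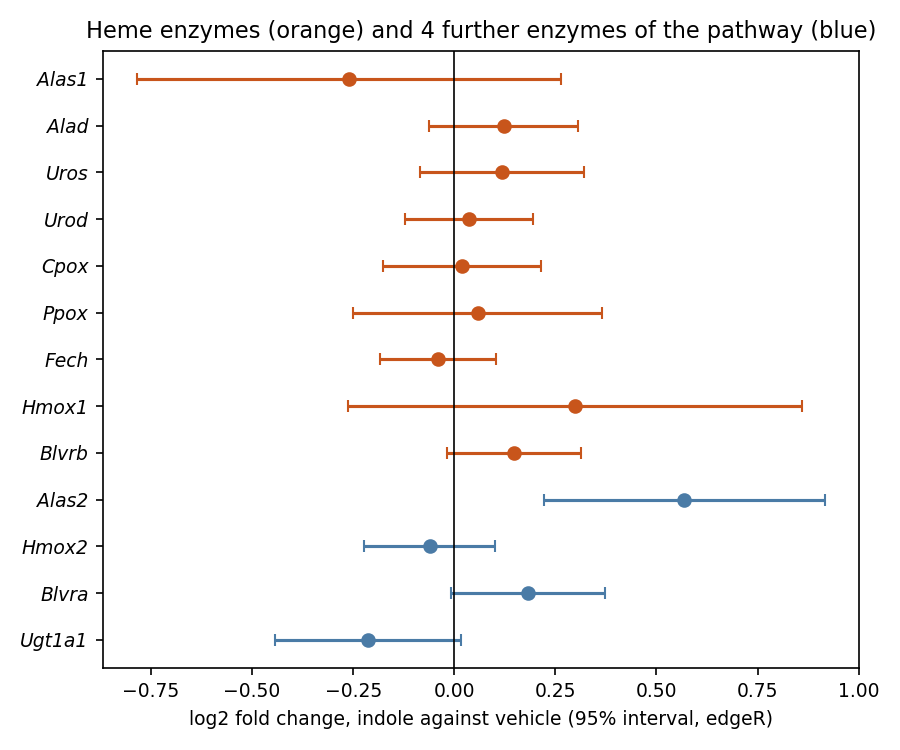
Log2 fold change (indole against vehicle, edgeR) of the heme genes and of further heme enzyme genes, with 95% intervals. The intervals of all 9 heme genes include 0, and that of *Alas2* (0.22 to 0.92) does not.

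Among the other enzymes of the pathway, 5 were tested, and 1 of them had an unadjusted *p* below 0.05 from edgeR. This was *Alas2*, the synthase of red cell precursors, at 17.4 to 26.0 CPM in vehicle-treated mice and 22.4 to 47.3 CPM in indole-treated mice. Its means were 22.4±3.11 CPM and 33.2±9.93 CPM, with a log2 fold change of 0.57 (SE 0.164, 95% interval 0.22 to 0.92), an unadjusted *p* of 0.00317 and an adjusted *p* of 0.998 from edgeR. The unadjusted *p* was below 0.05 under all 23 alternatives, and without G1 to G4 the log2 fold change was 0.63. Erythroid markers as a whole lay the same way. All 8 that were tested lay higher with indole (median log2 fold change 1.03), and 6 reached an unadjusted *p* below 0.05, *Alas2* and 4 globin genes among them. Of all tested genes, 1.53% were higher at that *p* from edgeR. The summed markers of indole-treated mice G3, G7 and G8 (307 to 321 CPM) lay inside the vehicle range of 231 to 417 CPM. Circulating young red cells carry these transcripts, and the share of blood in the lobes was not measured.

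The remaining enzymes had an unadjusted *p* above 0.05 from edgeR, although 2 of them passed it elsewhere. *Hmox2*, the constitutive heme oxygenase, was at 37.4±4.17 CPM with vehicle and 35.9±2.26 CPM with indole (log2 fold change −0.06). *Blvra*, the main biliverdin reductase of adult tissue, was at 11.8±1.10 and 13.4±1.36 CPM, a log2 fold change of 0.18 (95% interval −0.01 to 0.37) with an unadjusted *p* of 0.0595 from edgeR. Its exact permutation *p* was 0.0373, and 5 of 23 alternatives gave an unadjusted *p* below 0.05, among them limma voom (0.0364). Without G1 to G4 its log2 fold change was 0.14. *Ugt1a1*, which conjugates bilirubin for excretion, leaned the other way at 131±13.3 and 113±22.6 CPM, a log2 fold change of −0.21 (95% interval −0.44 to 0.02, unadjusted *p*=0.0685 from edgeR). Its exact permutation *p* was 0.0880, 5 of 23 alternatives gave an unadjusted *p* below 0.05, and without G1 to G4 the log2 fold change was −0.11. It shares exons with other *Ugt1a* genes, and its reads cannot be assigned to it alone.

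Genes that carry or bind heme, porphyrin and iron numbered 24, with 14 higher, 10 lower and 1 at an unadjusted *p* below 0.05, a share close to the 3.81% of all tested genes. That gene was *Flvcr2*, a membrane transporter of the heme exporter family, at 1.67±0.680 CPM with vehicle and 1.03±0.378 CPM with indole. Its log2 fold change of −0.72 (SE 0.295, unadjusted *p*=0.0246 and adjusted *p*=0.998 from edgeR) was past 0.05 under 18 of 23 alternatives. It was −0.62 without G4, −0.55 without G9, −0.61 without G12, −0.63 without G14 and −0.55 without G1 to G4, with an unadjusted *p* above 0.05 each time.

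Genes listed for the control of *Alas1* had small log2 fold changes, from −0.16 to 0.02. Not all 15 regulate its transcription, with *Pck1*, *Clpx* and *Lonp1* among the exceptions. Of the 15 tested, 2 were higher and 13 lower, where 48.7% of all tested genes were lower. An unadjusted *p* below 0.05 from edgeR was reached by 0 of the 15, and the median log2 fold change was −0.06. CAR and PXR are receptors that raise *Alas1* together with cytochrome P450 genes. The 15 genes listed for them gave 9 higher and 6 lower, with a median of 0.03. *Cyp2c29* was the 1 gene of these 15 with an unadjusted *p* below 0.05, at 1872±185 CPM with vehicle and 2487±298 CPM with indole (log2 fold change 0.41, unadjusted *p*=0.000143 and adjusted *p*=0.998 from edgeR). It was also the gene with an adjusted *p* below 0.05 in DESeq2 on the same genes (0.0393). The share of all tested genes at an unadjusted *p* below 0.05 was 3.81%, as given above. The list for NRF2 and BACH1, the factors that switch *Hmox1* on and off, held targets and also *Nfe2l2*, *Bach1* and *Keap1*. Of its genes, 16 of 18 were tested, 10 were higher and 6 lower, 0 had an unadjusted *p* below 0.05, and the median was 0.03. Their log2 fold changes ran from −0.12 for *Srxn1* to 0.64 for *Gsta1*, a glutathione transferase gene whose interval was −0.25 to 1.52.

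*Alas1* and *Hmox1* had the widest spread between mice of a group among the 9 genes. The within-group SD of log2 CPM was 0.463 for *Alas1* and 0.475 for *Hmox1*, and these were larger than for 97.8% and 97.4% of the 500 genes nearest to each in level. Without mouse G8, *Hmox1* came to 0.266 and 84.8%, close to *Ppox* at 0.277, while *Alas1* came to 0.474 and 98.6%. *Fech*, at 0.105, was at the other end, above 14% of its 500 neighbours and 4.61% of all tested genes. *Urod* (0.135), *Blvrb* (0.148), *Uros* (0.166), *Alad* (0.170), *Cpox* (0.188) and *Ppox* (0.270) lay between, beside a median of 0.238 for all genes. Genes nearest to *Alas1* in profile over the 14 mice, among 11692 compared, were *1700096K18Rik* (*r*=0.91), the cyclin F gene *Ccnf* (0.86) and the lysophospholipid transporter gene *Mfsd2a* (0.83). For *Hmox1* they were the receptor gene *Axl* (0.92), the leucocyte integrin gene *Itgal* (0.92) and the syndecan gene *Sdc3* (0.91), which came to 0.85, 0.69 and 0.78 without G8. For *Fech* they were *Rsrc1* (0.91), *Stard4* (0.90) and *Atp11b* (0.89). These genes were picked for their likeness, so no test applies.

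Correlations among the 36 pairs of heme genes over the 14 mice were mostly weak, with a median Pearson *r* of 0.02 and 19 positive. A permutation *p* below 0.05 was found for 7 pairs and an adjusted *p* below 0.05 for 0 pairs. The strongest was *Cpox* with *Fech*, the enzymes of steps near the end of synthesis, at *r*=0.72 (permutation *p*=0.00318, adjusted *p*=0.104 over 36 pairs) and Spearman rho=0.66 (permutation *p*=0.0120). It was 0.46 without G12 and G14, −0.01 within the vehicle group and 0.91 within the indole group, a difference that was not tested. *Alad* and *Urod* followed each other at *r*=0.62 (permutation *p*=0.0176, adjusted *p*=0.176) and rho=0.65 (permutation *p*=0.0130), with 0.72 without the 2 mice farthest in *Alad*, 0.61 within the vehicle group and 0.65 within the indole group, and with 0.46 without G1 to G4. *Urod* and *Ppox* ran in opposite directions at *r*=−0.69 (permutation *p*=0.00576, adjusted *p*=0.104) and rho=−0.58 (permutation *p*=0.0316), with −0.58 without the 2 farthest mice and −0.86 and −0.64 within the groups. That relation rested on the libraries G1 to G4, since it was 0.05 over the other 10 mice. Without G8, 3 pairs had an adjusted *p* of 0.0472 by permutation, namely *Alad* with *Uros* (*r*=0.74), *Urod* with *Ppox* (−0.75) and *Cpox* with *Fech* (0.74).

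**Figure D4:**
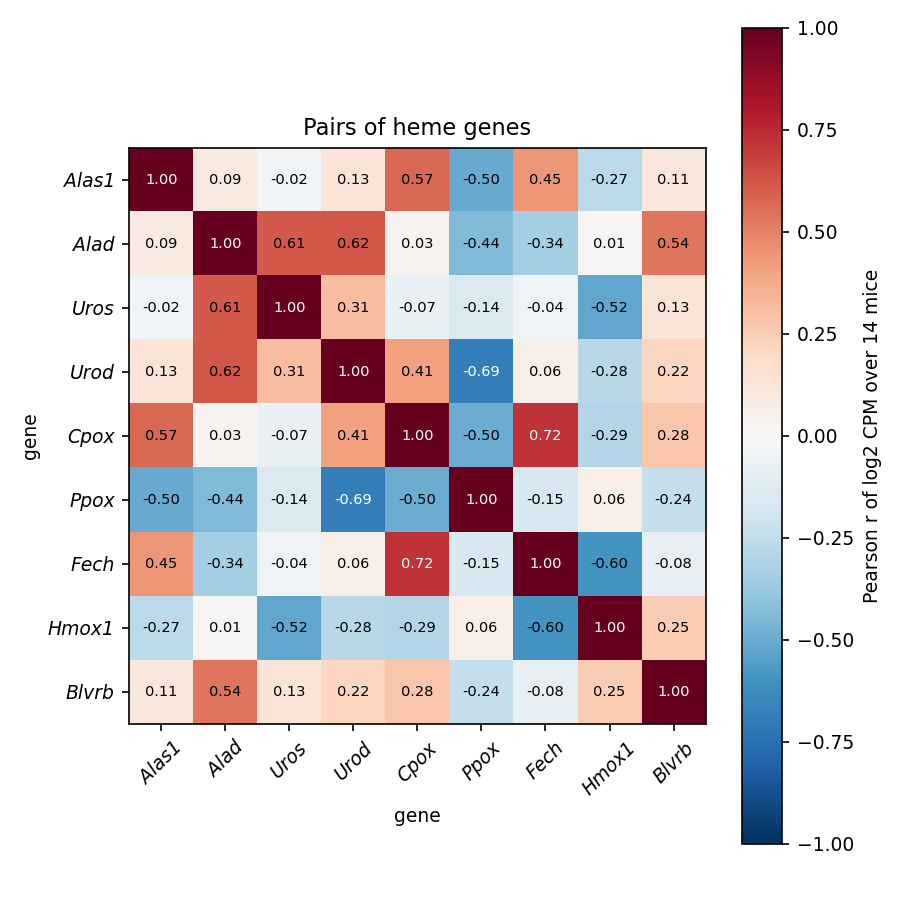
Pearson *r* of log2 CPM for the 36 pairs of heme genes over 14 mice. *Cpox* with *Fech* has the highest value (0.72) and *Urod* with *Ppox* the lowest (−0.69), and no pair has an adjusted *p* below 0.05.

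Heme genes were also set beside scores of 4 gene lists, each the mean z score of its genes, in 36 relations adjusted together, of which 4 had an adjusted *p* below 0.05 for *r*. *Hmox1* followed the score of 20 Kupffer cell and macrophage markers at *r*=0.90 (permutation *p*=0.00014, adjusted *p*=0.00252), with rho=0.63 (permutation *p*=0.0188, adjusted *p*=0.140). The value was 0.64 without G8 and G10, 0.80 without G8 alone, 0.86 within the vehicle group, 0.94 within the indole group and 0.92 without G1 to G4. Of the 20 markers, 19 had a positive *r* with *Hmox1*, from −0.03 for *Lyz2* to 0.91 for *Cd5l*, a macrophage gene. Summed, these markers were at 186 to 455 CPM with vehicle and 206 to 886 CPM with indole. Between groups, 19 of the 20 were higher with indole (median log2 fold change 0.20) and 0 reached an unadjusted *p* below 0.05 in edgeR. Of all 12653 tested genes, 6489 were higher. The summed markers had a median of 311 CPM with indole and 327 CPM with vehicle, and the 886 CPM was that of G8.

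*Ppox* and *Urod* moved with the libraries G1 to G4. *Ppox* was at 7.30 to 10.5 CPM in these 4 libraries with a median of 8.13 CPM, and at 5.37 to 7.30 CPM in the other 10 with a median of 6.15 CPM. *Urod* was at 74.1 to 83.8 CPM in them with a median of 75.4 CPM, and at 81.9 to 99.2 CPM in the others with a median of 89.2 CPM. *Ppox* thus lay at the upper end and *Urod* at the lower end in the libraries with low hepatocyte marker scores. Of the 10 markers, 9 had a positive *r* with *Urod* over all 14 mice and 9 a negative *r* with *Ppox*. The marker *Hnf4a* went the opposite way for both genes. An *r* over all 14 mice with the hepatocyte score was among the 36 relations, where *Urod* and *Ppox* had adjusted *p* values below 0.05, but its size is not given here because the scores fall into separate clusters. Over the other 10 mice *r* was 0.66 for *Urod* (permutation *p*=0.0399, adjusted *p*=0.288, rho=0.64) and 0.12 for *Ppox* (permutation *p*=0.735, adjusted *p*=0.882, rho=0.01). It was further −0.71 for *Hmox1* (permutation *p*=0.00581, adjusted *p*=0.105, rho=−0.75) and 0.72 for *Uros* (permutation *p*=0.0196, adjusted *p*=0.218, rho=0.72). Without G8 and G13, the 2 mice farthest in the score, these came to 0.45 for *Urod*, −0.53 for *Hmox1* and 0.52 for *Uros*.

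*Ppox* also followed the score of 17 clock genes, which set the daily rhythm of the liver, at *r*=0.81 (permutation *p*=0.00022, adjusted *p*=0.00264) and rho=0.82 (permutation *p*=0.00058, adjusted *p*=0.0104). It was 0.76 without G5 and G8, 0.91 within the vehicle group and 0.82 within the indole group. Without the libraries G1 to G4 it was 0.56 (permutation *p*=0.0985, adjusted *p*=0.591), so the call rested on those libraries. Of the 17 genes, 15 had a positive *r* with *Ppox* and 2 a negative *r*, from −0.144 for *Arntl* to 0.76 for *Cry2*. *Clock* was at −0.04 and *Nr1d1* at 0.16. The score is a mean over these genes, and whether it tracks the phase of the rhythm was not tested. *Ppox* likewise followed *Malat1*, a nuclear RNA chosen after its values were seen, at *r*=0.69 (permutation *p*=0.00465, adjusted *p*=0.0418 over 9 heme genes) and rho=0.63, with 0.48 without the 2 farthest mice and 0.16 without G1 to G4. The hour at which each lobe was taken is not given in the labels.

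**Figure D5:**
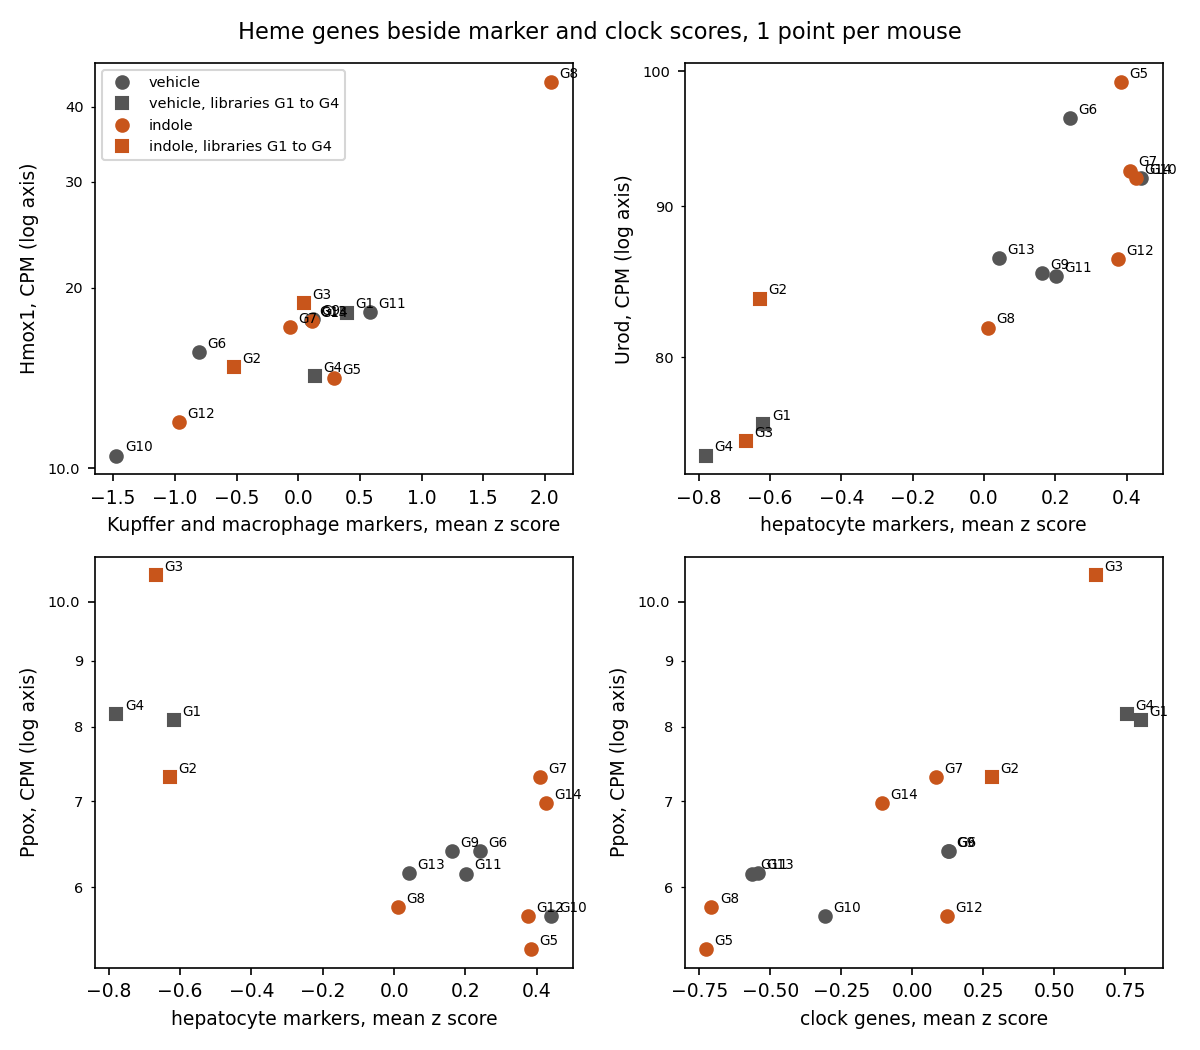
CPM of *Hmox1*, *Urod* and *Ppox* (log axes) against mean z scores of marker or clock genes, with 1 point per mouse and squares for the libraries G1 to G4. *Hmox1* climbs with the macrophage score up to mouse G8 (44.1 CPM), while in the *Urod* and *Ppox* panels the squares lie apart from the circles on the hepatocyte axis.

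The erythroid score was not related to any of the 9 genes at a permutation *p* below 0.05, with the highest *r*=0.51 for *Uros* (permutation *p*=0.0600, adjusted *p*=0.240, rho=0.42), then 0.48 for *Urod*, 0.47 for *Blvrb* and 0.47 for *Alad*, and *r*=−0.17 for *Alas1* (permutation *p*=0.556, adjusted *p*=0.690, rho=−0.30). *Alas1* was further set beside the 15 genes listed for its control, where 1 relation had a permutation *p* below 0.05. *Nr1d1*, the clock repressor REV-ERBα that binds heme, was lower where *Alas1* was higher, at *r*=−0.68 (permutation *p*=0.00847, adjusted *p*=0.127) and rho=−0.45 (permutation *p*=0.108). The value was −0.57 without G1 and G10, −0.71 within the vehicle group and −0.88 within the indole group. *Ppargc1a*, the fasting coactivator of *Alas1*, had *r*=0.17 over all mice (permutation *p*=0.554, rho=0.13), with −0.58 within the vehicle group and 0.69 within the indole group, a difference that was not tested.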

How the data were processed

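Bulk RNA-seq of 14 TALLYHO livers (7 vehicle, 7 indole) was analysed, with groups taken from the sample labels and mice named as their libraries (G1 to G14). The authors trimmed and aligned the reads with HISAT2 to GRCm38 (Ensembl release 102), kept uniquely mapped reads and deposited raw read counts per gene. The counting tool and its strand setting are not given in the sources used here. Libraries of a group differed by more than sampling noise (lowest chi-square per degree of freedom 16.7). The labels do not pair mice, and the *p* values of group differences set them against the spread between mice.

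Counts were tested with edgeR 4.0.16 (TMM, filterByExpr, robust quasi-likelihood test) in R 4.3.3, with Benjamini–Hochberg adjustment over 12653 genes. Standard errors were derived from the *F* statistic. Single genes were also tested with a two-sided exact permutation test over 3432 relabellings, and correlations of log2 CPM (prior count 2) with 100000 permutations. Levels per kb used the GENCODE M21 principal transcript. Promoter sequence is from RefSeq (GRCm38.p6). The procedure was tested on simulated data.

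The 9 genes and the gene lists were chosen with earlier results of these data known. Named genes were all 9, the further heme enzymes *Alas2*, *Hmox2* and *Blvra*, list members with an unadjusted *p* below 0.05 in the heme, CAR, PXR, NRF2 and regulator lists, and the 3 genes most like *Alas1*, *Hmox1* and *Fech* among those with a mean of at least 1 CPM. Others, *Ugt1a1* among them, were chosen after their values were seen. Some genes of the lists enter counts only and are not reported here. The results were recomputed with DESeq2 1.42.0 (on the tested genes, and with default settings on 22535 genes), limma 3.58.1 voom, RLE and upper quartile scaling, no filter, a mean of at least 10 counts, a fit that was not robust, a prior count of 0.5 and leaving out each mouse. Leaving out G1 to G4, the spread without G8, and the checks of the score correlations, were added after seeing the data.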

Additional observations from a re-analysis of the deposited data

Results flagged for a closer look

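In each group of 7 mice, the gap from the highest or lowest mouse to its neighbour was set against the group's whole range. Of 34 such groups, 4 had a gap above Dixon's 95% critical value, where about 1 in 20 groups, or 1.7, would by chance. Indole-treated mouse G12 was highest for *Alas1*, at 254 CPM, with a gap of 0.631 of the range. Indole-treated mouse G3 was highest for *Ppox*, at 10.5 CPM, with a gap of 0.622. Indole-treated mouse G8 was highest for *Hmox1*, at 44.1 CPM, with a gap of 0.786, and for the summed Kupffer cell and macrophage markers, at 886 CPM, with a gap of 0.799.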

How the results depend on the processing

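Over 23 alternatives, 198 of 207 log2 fold changes of the 9 genes kept their direction and their side of an unadjusted *p* of 0.05, and 0 had an adjusted *p* below 0.05. In 6 the direction turned, and the cause was not tested beyond the mouse left out. Leaving out 1 mouse gave −0.0355 to 0.0615 for *Cpox*, −0.0692 to 0.112 for *Ppox* and −0.0261 to 0.39 for *Hmox1*. In 3, *Blvrb* went below 0.05. The number of heme genes with an unadjusted *p* below 0.05 was accordingly 0 to 1, being 1 without G6, G7 or G11. For the other heme enzymes and carriers it was 2, with 1 to 5 when 1 mouse was left out (5 without G13, 4 without G5 or G7, 1 without G4, G9 or G12) and 1 without G1 to G4. The number of correlated pairs, 0, ranged from 0 to 3, with 3 without G8. The *r* of *Ppox* with the hepatocyte score, negative over all 14 mice, was 0.12 without G1 to G4. Over all genes, an unadjusted *p* below 0.05 was found for 482 and, with no filter on low counts, for 1336. No paired analysis was possible because the labels give no number shared between groups. With 7 mice a group and these spreads, the interval around the estimated change of *Alas1* ran from −41.9% to 20.1% and included 0. The smallest change that could be told from 0 was not computed.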
